A study of Homo sapiens with 12 samples.

Results

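The zinc finger genes of chromosome 19 described here are the protein-coding genes of that chromosome whose RefSeq symbol is ZNF followed by digits, with at most 1 letter after them. There are 246 of them among 19866 protein-coding genes in all, beside 1160 other protein-coding genes of chromosome 19. A further 4 entries (3 read-through genes and ZNF470-DT) start with ZNF and a digit and were left out. For each gene, peaks within 1 kb of the gene start or end were counted as boundary peaks, and those deeper in the gene as inside peaks.

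The peaks came from Flag ChIP-seq in U2OS, a human osteosarcoma line that carried a doxycycline-inducible (tet-on) transgene for a nuclease-dead protein. One line expressed RNaseH1-D210N (RNaseH1 cuts the RNA strand of RNA:DNA hybrids) and the other REXO4-D386A (REXO4 is an exonuclease family member). The labels describe 12 libraries, with 2 ChIP libraries and 1 input for each line with doxycycline (1 µg/ml, about 60 h) and without it, and the question was whether both proteins bind R-loops, in which RNA pairs with 1 DNA strand and displaces the other. The values used here were 1 peak list per protein in hg38 coordinates, with 54623 peaks for RNaseH1 and 1460 for REXO4. The sources used here do not give which libraries entered each list, or the control, so no value below has a replicate error. Shares of genes carry 95% exact binomial intervals and folds carry 95% exact Poisson intervals, both for counting error only. Neighbouring genes can share a peak, and differences between groups of genes are therefore given as descriptions, with no test.

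Most ZNF proteins of chromosome 19 are transcription factors that read DNA with arrays of C2H2 zinc fingers, and many of them carry a KRAB domain that recruits the co-repressor TRIM28. TRIM28 brings the histone methyltransferase SETDB1 and heterochromatin protein 1, and the complex is best known for silencing transposable elements. The family grew by tandem duplication, so its genes lie in clusters of similar copies, and the fingers are mostly encoded in the last exon. The sources used here do not give how reads that match several copies were treated, and its part in the values below was not tested.

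The promoters of ZNF genes are shown first, because nearly all RNaseH1 boundary peaks of these genes lay at their starts. RefSeq promoter windows (GRCh38.p14, 250 bases before the start to 50 after it, 300 in all) were found for 216 of the 246 genes. The windows of ZNF561, ZNF181, ZNF585A and ZNF699 are among those under the highest RNaseH1 folds, and those of ZNF577 and ZNF568 belong to the longest genes without a peak. Capitals mark CCGGAAG on either strand, a longer form of the site of ETS family transcription factors, whose core is GGAA. Shorter matches were not marked or counted.
ZNF561: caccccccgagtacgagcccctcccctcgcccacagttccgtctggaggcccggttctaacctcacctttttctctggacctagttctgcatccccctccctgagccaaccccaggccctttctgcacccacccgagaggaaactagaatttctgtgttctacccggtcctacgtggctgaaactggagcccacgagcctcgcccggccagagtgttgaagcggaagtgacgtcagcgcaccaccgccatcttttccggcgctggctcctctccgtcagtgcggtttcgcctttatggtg
ZNF181: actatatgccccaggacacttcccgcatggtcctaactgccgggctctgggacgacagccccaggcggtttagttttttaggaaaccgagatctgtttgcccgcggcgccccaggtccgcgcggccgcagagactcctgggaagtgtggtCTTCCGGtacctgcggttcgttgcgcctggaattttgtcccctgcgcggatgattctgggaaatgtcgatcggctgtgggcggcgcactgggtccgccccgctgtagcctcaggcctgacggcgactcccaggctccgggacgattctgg
ZNF585A: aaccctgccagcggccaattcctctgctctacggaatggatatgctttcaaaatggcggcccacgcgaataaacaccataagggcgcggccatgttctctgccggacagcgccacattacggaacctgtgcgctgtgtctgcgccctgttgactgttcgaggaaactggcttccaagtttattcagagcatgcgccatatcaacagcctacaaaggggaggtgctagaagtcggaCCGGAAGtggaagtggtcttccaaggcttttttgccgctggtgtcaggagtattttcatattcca
ZNF699: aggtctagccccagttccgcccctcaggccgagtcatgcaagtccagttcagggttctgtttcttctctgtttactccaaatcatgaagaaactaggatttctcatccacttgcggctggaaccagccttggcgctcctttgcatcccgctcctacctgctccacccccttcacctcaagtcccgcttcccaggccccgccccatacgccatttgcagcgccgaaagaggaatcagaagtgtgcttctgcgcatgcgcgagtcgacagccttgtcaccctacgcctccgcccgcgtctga
ZNF577: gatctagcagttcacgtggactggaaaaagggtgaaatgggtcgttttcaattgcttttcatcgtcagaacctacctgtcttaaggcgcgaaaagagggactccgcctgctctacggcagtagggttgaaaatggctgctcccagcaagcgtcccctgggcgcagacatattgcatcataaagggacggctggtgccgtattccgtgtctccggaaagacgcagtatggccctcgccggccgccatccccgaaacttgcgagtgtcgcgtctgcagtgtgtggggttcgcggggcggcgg
ZNF568: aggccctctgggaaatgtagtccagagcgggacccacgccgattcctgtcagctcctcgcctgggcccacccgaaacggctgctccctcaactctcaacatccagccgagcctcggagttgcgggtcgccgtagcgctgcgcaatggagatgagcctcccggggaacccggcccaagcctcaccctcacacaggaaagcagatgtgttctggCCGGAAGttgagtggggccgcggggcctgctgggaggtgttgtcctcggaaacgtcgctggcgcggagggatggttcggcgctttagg
The windows lie at chr19:9621183-9621482 on the minus strand (ZNF561), chr19:34733993-34734292 on the plus strand (ZNF181), chr19:37172646-37172945 on the minus strand (ZNF585A), chr19:9309789-9310088 on the minus strand (ZNF699), chr19:51887902-51888201 on the minus strand (ZNF577) and chr19:36916082-36916381 on the plus strand (ZNF568). The 7 letters CCGGAAG are present in both kinds of window, at ZNF181 and ZNF585A with a peak and at ZNF568 without one.

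RNaseH1 peaks lay at the boundaries of 141 of the 246 ZNF genes, 57.3% (50.9 to 63.6), against 836 of the 1160 other protein-coding genes of chromosome 19, 72.1% (69.4 to 74.6). Over all protein-coding genes the share was 67.1%. ZNF genes minus other genes gave -14.8 percentage points. The gap was smaller with peaks shared between genes left out and all genes kept in the counts. With peaks that also lay within 1 kb of the boundary of a further gene left out, the ZNF share was 43.9% and the difference -1.87 percentage points. Of the ZNF genes with a boundary peak, 37 of 141 (26.2%) had another gene boundary within 1 kb of the summit of their strongest peak, against 334 of 836 other genes (40.0%). With shared peaks left out, a gene close to another can hardly have a peak, which lowers the share of the other genes more. The smaller gap is therefore no comparison of like genes.

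The highest fold at a ZNF boundary was modest for the list. Over the 141 genes with a peak, the highest fold per gene had a median of 2.84 (interquartile range 2.45 to 3.19) and a maximum of 4.88. Over the 836 other genes with a peak the median was 3.25 (2.81 to 3.73) and the maximum 31.1. The median of all RNaseH1 peaks was 3.07, and 47 of the 141 ZNF genes (33.3%) exceeded it, against 504 of the 836 others (60.3%). Folds of 4 or more were reached by 9 ZNF genes (6.38%) and 136 other genes (16.3%). The distinct peaks behind the ZNF values were not shallow: the 165 of them rested on a median of 65 fragments against an expected 23.2, and 115 (69.7%) had a q of 1e-05 or less. The 1094 boundary peaks of the other genes had medians of 59 fragments and 18.5 expected, and 70.1% had such a q. Per distinct boundary peak the median fold was 2.82 for ZNF genes and 2.94 for the others, both below the list's median. The shares above that median, by contrast, set the highest fold per gene against single peaks, and a gene can have several boundary peaks. A ZNF boundary peak was 544 bp wide at the median, against 613 bp for the others.

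**Figure D1:**
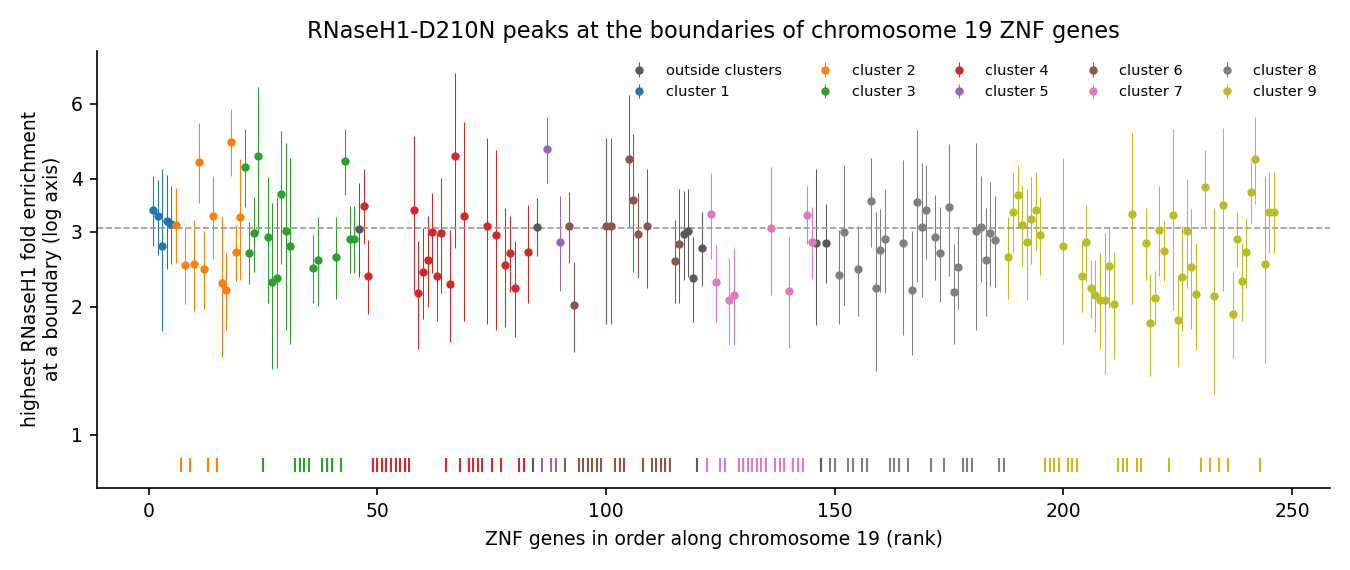
The highest RNaseH1 fold enrichment at a boundary (log axis) is plotted for each of the 246 ZNF genes in their order along chromosome 19, with 95% Poisson intervals and 1 colour per cluster. Ticks at the bottom are the genes without a boundary peak, and the dashed line is the list's median of 3.07, below which most points lie.

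The 8 ZNF genes of highest RNaseH1 boundary fold were spread over 6 clusters. ZNF561 led with a fold of 4.88 (4.05 to 5.82), from 120 fragments against an expected 23.8 in a peak at chr19:9620850-9621742 over its start, where the antisense gene ZNF561-AS1 also has a boundary. ZNF181 had 4.69 (3.90 to 5.60) from 121 fragments in a peak over its start at chr19:34733905-34734600. These 2 peaks stood at percentiles 96.7 and 95.5 of the whole list. ZNF43 had 4.53 (2.74 to 7.10), ZNF441 4.51 (2.98 to 6.58) and ZNF585A 4.46 (3.06 to 6.30), from 17, 25 and 30 fragments. ZNF584 had 4.45 (3.49 to 5.60), ZNF564 4.40 (3.67 to 5.24) and ZNF699 4.39 (3.5 to 5.42), from 71, 124 and 83 fragments. The intervals of all 8 overlapped, so their order is within counting error. ZNF441 alone had its strongest boundary peak past the gene end, with a fold of 2.86 at its start. At ZNF43 and ZNF584 the peak lay at the outermost annotated start, and the RefSeq promoter started 15883 and 7091 bp further in. The folds at those promoters were 2.36 and 3.72. The peaks of ZNF584 and ZNF564 also had a boundary of LINC02560 and of LINC02926, respectively, within 1 kb of the summit.

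Peaks of ZNF genes lay at gene starts. The strand was known for 216 ZNF genes and 966 other genes of chromosome 19. A start peak was found at 124 ZNF genes, 57.4% (50.5 to 64.1), and an end peak at 9, 4.17% (1.92 to 7.76). Among the other genes the shares were 67.0% (63.9 to 69.9) at the start and 28.4% (25.5 to 31.3) at the end. Of the ZNF genes, 116 had a start peak alone, 8 both and 1, ZNF534, an end peak alone. With peaks at a boundary of another gene left out and all genes kept, the start shares were 42.6% for ZNF genes (35.9 to 49.5) and 39.8% for the other genes (36.6 to 42.9). These intervals overlap. The end shares were then 2.31% and 15.1%. The start was the outermost annotated position of the gene. For 29 of the 216 ZNF genes every RefSeq promoter started over 1 kb inside it. At the outermost RefSeq promoter start, 137 ZNF genes (63.4%, 56.6 to 69.9) had a peak, against 651 other genes (67.4%, 64.3 to 70.3). ZNF genes minus other genes then gave -3.97 percentage points, against -9.57 at the gene start.

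The low share at ZNF ends was part of a wider scarcity around these genes. In bins of 500 bp, 44.9% of ZNF genes had a summit in the first bin after the start, against 43.6% of the other genes. In the next bin downstream it was 4.17% against 10.8%. Around gene ends, out to 5 kb on either side, no bin exceeded 3.70% for ZNF genes, whereas the other genes lay between 4.14% and 7.45%. Their highest value was shared by the bin just past the end and the bin 500 to 1000 bp before it. Summits within 1 kb of the start of ZNF genes lay a median of 171 bp downstream of it (interquartile range 31 to 305), and 106 of 137 (77.4%) were downstream. For the other genes the median was 95 bp and 67.7% were downstream. ZNF genes of other chromosomes also had few end peaks, at 12 of 214 (5.61%), beside start peaks at 176 (82.2%). Over all 15842 protein-coding genes of known strand, 11.5% had an end peak.

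**Figure D2:**
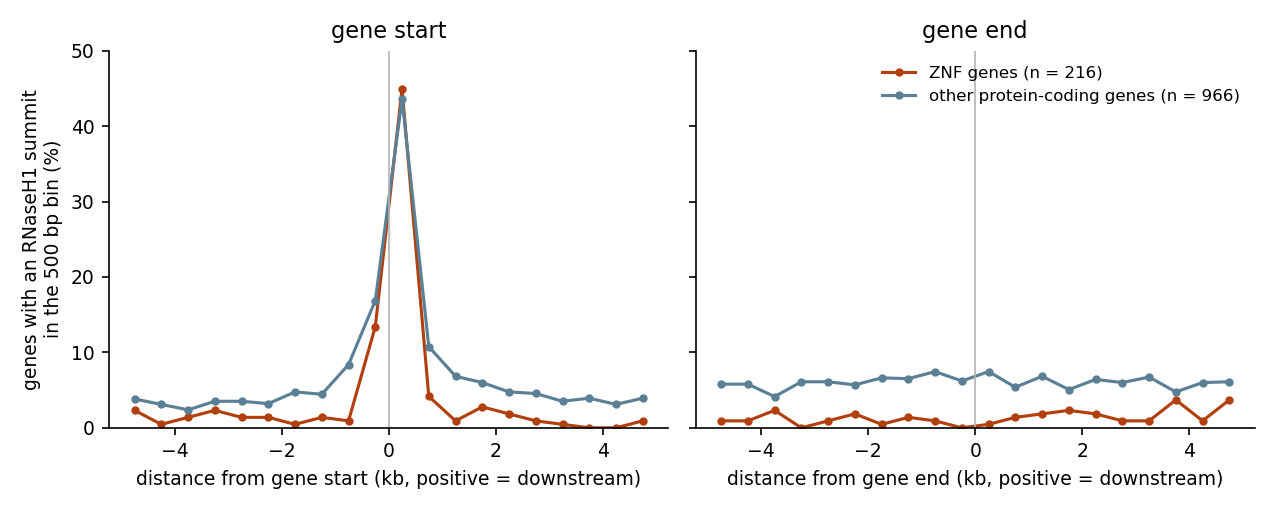
The percentage of genes with an RNaseH1 summit in each 500 bp bin is plotted against distance from the gene start (left) and gene end (right) for 216 ZNF genes and 966 other protein-coding genes of chromosome 19. Both groups peak just after the start, at 44.9% and 43.6%, and ZNF genes lie below the others around the end.

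RNaseH1 peaks inside ZNF genes were sparse beside the other genes of chromosome 19. At least 1 was found in 68 of 246 ZNF genes, 27.6% (22.2 to 33.7), against 553 of 1160 other genes of chromosome 19, 47.7% (44.8 to 50.6), and 43.5% of all protein-coding genes. ZNF genes were longer, with a median of 23152 bp against 12659 bp, so the contrast is larger per length: 1.63 peaks per 100 kb of gene interior (1.34 to 1.97) against 6.14 (5.83 to 6.48). All protein-coding genes together had 1.73 per 100 kb, near the ZNF value. ZNF genes of other chromosomes had 1.88 (1.65 to 2.13), and 37.6% of them (31.8 to 43.8) had an inside peak. The low density is thus not particular to the ZNF genes of chromosome 19. The other protein-coding genes lying in the same stretches as the ZNF genes had 3.71 (3.07 to 4.44), and those outside had 6.54 (6.19 to 6.91). Of the 68 genes, 46 had a single inside peak and 35 had no boundary peak. Part of these peaks lay at promoters. At 20 of the 35 genes without a boundary peak, an inside peak was within 1 kb of a RefSeq promoter start of the gene itself. Counted per gene, 28 of the 109 inside peaks were at such a promoter and 24 within 1 kb of a boundary of a different gene. With both kinds left out, 17.5% of ZNF genes (12.9 to 22.8) and 42.9% of the other genes (40.1 to 45.8) had an inside peak. The densities were then 0.987 (0.763 to 1.26) and 5.22 (4.93 to 5.53) per 100 kb.

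The gap in boundary and inside shares between ZNF and other genes grew with gene length. Under 10 kb, 67.9% of 28 ZNF genes had a boundary peak, against 67.3% of 453 other genes. Between 10 and 30 kb the shares were 62.6% of 139 and 74.0% of 470, and between 30 and 100 kb 45.5% of 77 and 77.3% of 207. Inside peaks followed a like course, with 17.9% against 19.6%, 25.2% against 57.2%, and 35.1% against 81.6% in the same bins. Only 2 ZNF genes exceeded 100 kb. The gap at gene ends did not grow steadily. For genes of known strand, end shares were 11.5% for ZNF genes against 29.6% for the others under 10 kb, 4.17% against 29.7% at 10 to 30 kb, and 1.47% against 23.9% at 30 to 100 kb.

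**Figure D3:**
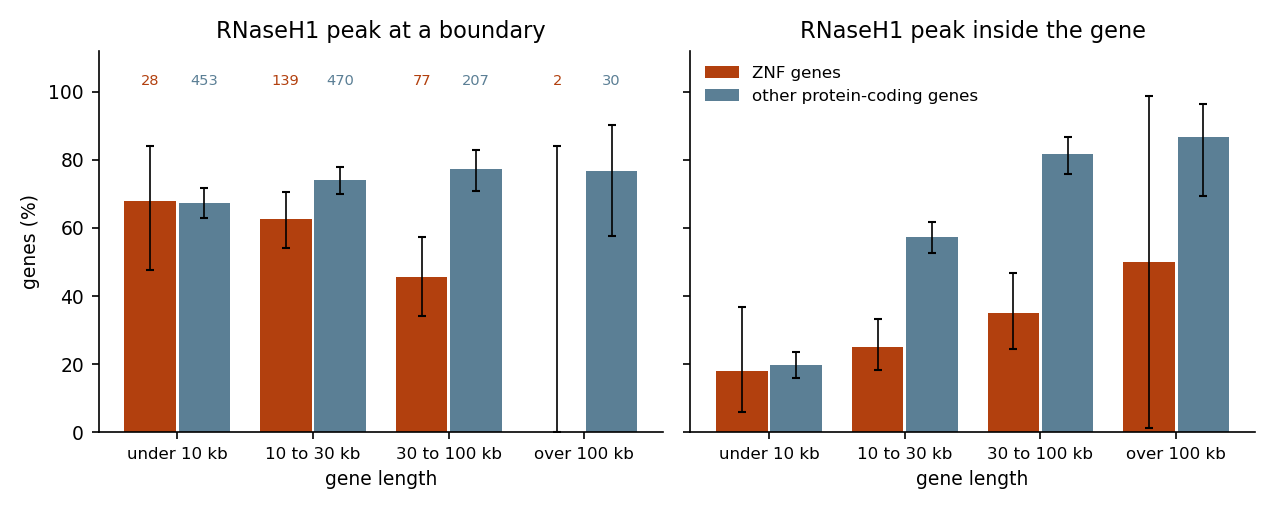
Bars give the percentage of ZNF genes (left bar of each pair) and of other protein-coding genes of chromosome 19 (right bar) with an RNaseH1 peak at a boundary (left panel) and inside the gene (right panel) by gene length, with 95% exact binomial intervals and, in the left panel, the number of genes on top. The boundary shares are alike under 10 kb (67.9% and 67.3%) and part with length.

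The genes with most inside peaks were of unlike kinds. ZNF536, a gene of 487995 bp outside the clusters and best known from neurons, had 6 RNaseH1 peaks inside and none at a boundary. ZNF69 and ZNF600 had 5 each, and ZNF114 and ZNF787 had 4 each. The strongest were 3.94 (2.39 to 6.17) in ZNF536, 3.67 (2.52 to 5.19) in ZNF69, 3.59 (2.73 to 4.64) in ZNF600, 4.11 (2.81 to 5.81) in ZNF114 and 3.53 (2.29 to 5.22) in ZNF787. The span of ZNF69 contains other ZNF genes, and 3 of its 5 inside peaks, the strongest among them, lay at boundaries of ZNF700 or ZNF763. In ZNF600, 1 of 5 lay at a boundary of ZNF28, and in ZNF114 2 of 4 at ZNF114-AS1. Boundary peaks were present at ZNF69 (2.33, 1.43 to 3.62) and ZNF787 (2.95, 2.37 to 3.63), and absent at ZNF600 and ZNF114. The longest genes with no peak of either protein were ZNF420, ZNF577, ZNF568 and ZNF676. The widest boundary peaks were those of ZNF576 (2108 bp), ZNF555 (2031 bp) and ZNF497 (1659 bp), and that of ZNF576 had its summit at -1184 bp from the start (upstream), next to a boundary of IRGQ.

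The clusters differed in how many of their genes had a peak. ZNF genes that followed each other with gaps of at most 1 Mb formed 9 runs of at least 5, which held 235 of the 246 genes. All 5 genes of the run at 2.8 to 2.9 Mb had a boundary peak. The share was 73.3% of 15 genes at 7.1 to 9.8 Mb and 64.0% of 25 at 11.5 to 12.6 Mb on the short arm, and 69.5% of 59 (56.1 to 80.8) at 55.5 to 58.5 Mb near the end of the long arm. By outermost annotated boundaries, it was lowest in the run at 43.5 to 45.1 Mb, with 8 of 24 genes (33.3%, 15.6 to 55.3). Next came the run at 36.2 to 37.8 Mb, with 10 of 26 (38.5%, 20.2 to 59.4). The pericentromeric run at 19.7 to 24.1 Mb had 48.6% of 37 genes (31.9 to 65.6), that at 51.6 to 53.6 Mb 56.4% of 39 (39.6 to 72.2), and that at 34.7 to 35.0 Mb 2 of 5. Most of these intervals overlap, but that of the last run of the chromosome lies above the upper bound of the run at 43.5 to 45.1 Mb. These shares rest on the outermost annotated boundaries. At 43.5 to 45.1 Mb, ZNF575, ZNF225 and ZNF227 had no boundary peak, but a peak at their outermost RefSeq promoter, over 1 kb inside. So did ZNF302 and ZNF599 at 34.7 to 35.0 Mb, and ZNF444, ZNF749, ZNF329, ZNF814 and ZNF324B in the last run. The same held for ZNF358 and ZNF558 at 7.1 to 9.8 Mb, ZNF442 and ZNF799 at 11.5 to 12.6 Mb, and ZNF320 at 51.6 to 53.6 Mb. ZNF846 and ZNF254 had the reverse. ZNF112 at 43.5 to 45.1 Mb, and ZNF565, ZNF567 and ZNF875 at 36.2 to 37.8 Mb, had a peak only at a further RefSeq promoter inside the gene. At outermost RefSeq promoter starts, the share with a peak was lower at 36.2 to 37.8 Mb than at 43.5 to 45.1 Mb. The lowest place of the latter run is thus tied to the outermost boundaries. Intervals per run were not computed at promoter starts.

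The other genes of the same stretches did not follow the ZNF genes. In the run at 43.5 to 45.1 Mb, 8 of 24 ZNF genes had a boundary peak against 20 of 28 other genes (71.4%, 51.3 to 86.8). In that at 55.5 to 58.5 Mb the order was the opposite, with 69.5% of ZNF genes against 36.4% of 44 other genes (22.4 to 52.2), and at 51.6 to 53.6 Mb 56.4% against 21.4% of 14 (4.66 to 50.8). At 7.1 to 9.8 Mb the shares were 73.3% and 64.2% of 53. Pooled over the 9 stretches, 133 of 235 ZNF genes had a boundary peak (56.6%, 50.0 to 63.0), against 52.0% of the 150 other genes in them (43.7 to 60.2). This pooled pair averages stretches of opposite order. Outside the stretches 75.05% of 1010 other genes had one.

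**Figure D4:**
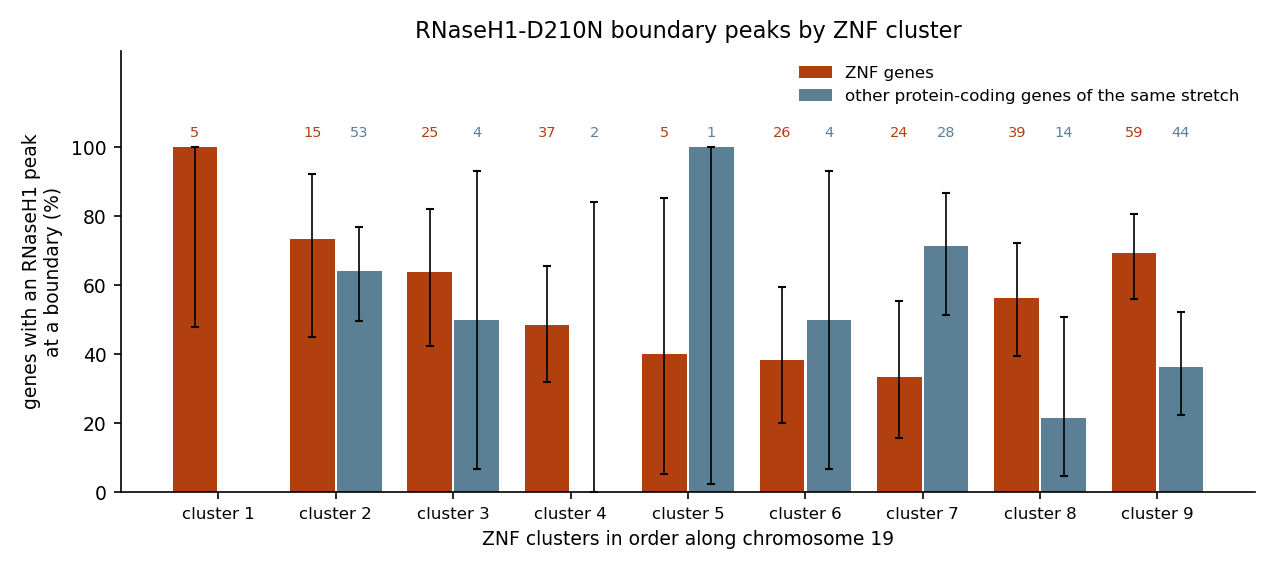
Bars give the percentage of genes with an RNaseH1 boundary peak in each of the 9 ZNF clusters for ZNF genes (left) and for other protein-coding genes of the same stretch (right), with 95% exact binomial intervals and the number of genes on top. By these outermost annotated boundaries cluster 7 (43.5 to 45.1 Mb) has the lowest ZNF share, 33.3%, and cluster 1 holds no other gene.

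Peak density and fold also varied along the chromosome. RNaseH1 peaks numbered 35.0 per Mb within the ZNF stretches and 67.0 per Mb outside them, and the stretches made up 28.9% of the annotated length but held 17.5% of the 3376 RNaseH1 peaks of the chromosome. The pericentromeric run was the poorest, with 11.2 peaks per Mb and 0.624 inside peaks per 100 kb of ZNF gene interior. The run at 11.5 to 12.6 Mb had 42.6 per Mb and 3.10 inside peaks per 100 kb. Median boundary folds of ZNF genes ranged from 2.56 at 43.5 to 45.1 Mb to 3.19 at 2.8 to 2.9 Mb among the runs with at least 5 genes with a peak. The strongest ZNF gene of each run was ZNF554 (3.38, 2.79 to 4.06), ZNF561, ZNF441, ZNF43, ZNF181, ZNF585A, ZNF576 (3.30, 2.60 to 4.14), ZNF616 (3.55, 2.77 to 4.48) and ZNF584, in order along the chromosome. Only 4 of the 165 boundary peaks touched more than 1 ZNF gene, so few boundary peaks were counted for several members. Inside peaks overlapped them more: 9 of the 103 distinct inside peaks were also a boundary peak of a different ZNF gene.

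REXO4 peaks were not found at ZNF boundaries. Of the 246 ZNF genes 0 had one, which allows a share of up to 1.22% by the limit of 3 genes of 246 (exact binomial upper bound 1.49%), against 47 of the 1160 other genes of chromosome 19, 4.05% (2.99 to 5.35), and 3.82% of all protein-coding genes. All 47 other genes had an RNaseH1 boundary peak as well. ZNF genes of other chromosomes had a REXO4 boundary peak at 9 of 263 (3.42%, 1.58 to 6.40), so the family did have such peaks elsewhere. Among the other genes inside the ZNF stretches it was 5 of 150 (3.33%, 1.09 to 7.61).

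Inside the ZNF genes a single REXO4 peak was found, 1 of 246 genes (0.407%), against 22 of 1160 other genes (1.90%) and 1.81% of all protein-coding genes. It lay in ZNF536 at chr19:30227664-30228011, 2072 bp from the gene start, with a fold of 2.79 (2.11 to 3.61) from 55 fragments. It overlapped 0 RNaseH1 peaks, whereas 60 of the 84 REXO4 peaks of chromosome 19 (71.4%) overlapped one. Accordingly, 0 of the 259 RNaseH1 peaks at or inside ZNF genes overlapped a REXO4 peak. This follows almost wholly from the count above and is no separate result. The chromosome has 84 REXO4 peaks against 3376 RNaseH1 peaks, so few RNaseH1 peaks could overlap one anywhere.

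The ZNF stretches themselves were not free of REXO4. They held 14 of its 84 peaks on the chromosome (16.7%), or 0.828 per Mb against 1.68 per Mb outside, and 10 of the 14 overlapped an RNaseH1 peak. The nearest to a ZNF gene was at chr19:44309139-44309579, 4114 bp from ZNF235 and outside annotated genes, with a fold of 5.06 (3.02 to 8.03) from 16 fragments. The next was over RNF225 at chr19:58396688-58397006, 4552 bp from ZNF584, with 3.21 (2.30 to 4.38). The median distance of the 14 peaks from a ZNF gene was 47309 bp.

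In sequence, ZNF promoters often held the ETS-type site CCGGAAG, and their GC content was near that of all promoters. The 216 windows had a median of 60.0% GC and 20 CpG dinucleotides, against 64.0% and 21 in 966 windows of the other genes. Over all promoters of the genome, 1 per gene, the medians were 58.3% and 14. CCGGAAG, searched on both strands, was in 97 of 216 ZNF windows (44.9%), against 124 of 966 (12.8%) and 10.7% of 27305 promoters of the genome, 1 per gene. Its share was alike in ZNF windows with an RNaseH1 peak within 1 kb of the promoter start (60 of 137, 43.8%) and without one (37 of 79, 46.8%). Among the other genes it was 17.4% with a peak and 3.49% without. GGGG on the sense strand was in 76.9% of ZNF windows, 87.8% of the others and 73.8% of all promoters, and GC skew, the excess of G over C relative to their sum, had a median of 0.00 in ZNF windows. A motif match is a description of the letters and shows no binding.

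From the lowest to the highest bin of CpG count, the share of promoters with an RNaseH1 peak rose less at ZNF genes than at the others. This is a description and rests mainly on the lowest bin. ZNF windows with a peak had a median of 21 CpG and those without 17. For the other genes these medians were 27 and 7. At 14 CpG or fewer, 54.5% of 55 ZNF promoters (40.6 to 68.0) had a peak against 30.03% of 353 others (25.3 to 35.1). That bin is not matched in CpG, since the first quartile was 14 for ZNF windows and 9 for the others. At 15 to 20 CpG the shares were 59.3% of 59 against 75.4% of 118. At 21 to 25 they were 66.7% of 48 against 86.8% of 114. At 26 or more they were 74.1% of 54 (60.3 to 85.0) against 93.7% of 381 (90.8 to 95.9). From 15 CpG up the ZNF share was thus the lower one in each bin, and the rises were nearer alike. ZNF577 and ZNF568, shown above without a peak, had 25 CpG each. Those shown with a peak had 20 (ZNF561), 28 (ZNF181), 17 (ZNF585A) and 18 (ZNF699), so 3 of these 4 were below both. Counting every RefSeq promoter of a gene gave 142 of 216 ZNF genes with a peak, against 137 with 1 promoter per gene.

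**Figure D5:**
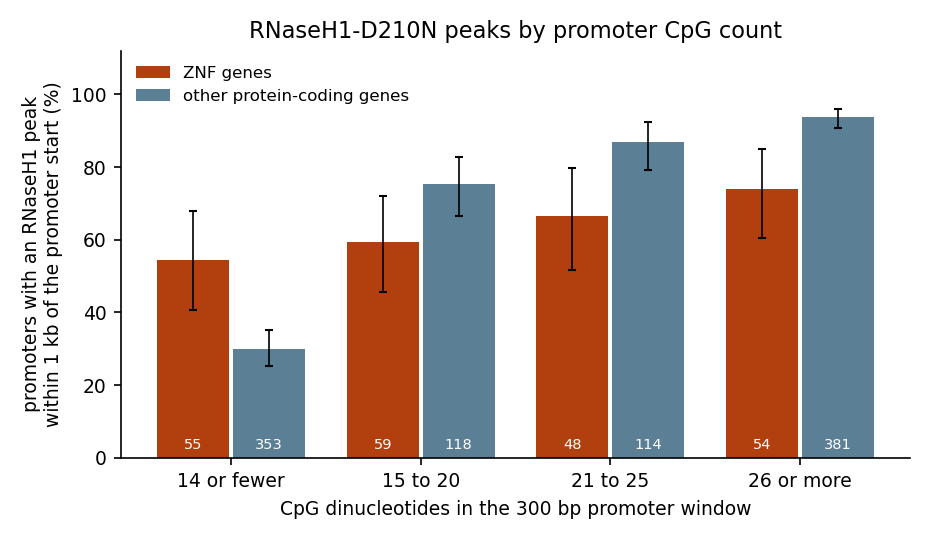
Bars give the percentage of promoters with an RNaseH1 peak within 1 kb of the promoter start for ZNF genes (left) and other protein-coding genes of chromosome 19 (right) by the number of CpG dinucleotides in the 300 bp window, with 95% exact binomial intervals and the number of promoters at the foot. The ZNF bars climb from 54.5% to 74.1% and those of the other genes from 30.03% to 93.7%.

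A list of 22 co-repressor and heterochromatin genes was set beside the ZNF genes, and 19 of them had an RNaseH1 boundary peak (86.4%, 65.1 to 97.1). This interval holds the 67.1% of all protein-coding genes. The list includes ZFP57, itself a KRAB zinc finger gene. The histone deacetylase gene HDAC1 had the highest fold, 6.43 (5.59 to 7.35), followed by EHMT2, a histone H3 lysine 9 methyltransferase gene (4.34, 2.84 to 6.37), and TASOR, a subunit of the HUSH silencing complex (3.65, 3.06 to 4.33). TRIM28, which lies at the end of chromosome 19, had 2.86 (2.04 to 3.89). SETDB1, UHRF1 and ZFP57 had none at a boundary. CHD3, a chromatin remodeller that binds TRIM28, was the only gene of the list with a REXO4 boundary peak (2.05, 1.71 to 2.45).

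Zinc finger genes of chromosome 19 with other symbols, such as ZSCAN, ZFP and ZBTB genes, had an RNaseH1 boundary peak at 7 of 19 (36.8%, 16.3 to 61.6). They were ZBTB7A (3.72), ZBTB45 (3.59), ZSCAN22 (3.51), ZFP36 (3.49), ZBTB32 (3.46), ZFP30 (2.45) and ZFP14 (2.02). ZFP36 encodes an RNA-binding CCCH protein and no C2H2 factor. ZIM2, ZIM3, PEG3 and ZIK1 in the run at 55.5 to 58.5 Mb had none at a boundary. ZBTB7A and ZBTB32 had REXO4 boundary peaks, with folds of 2.07 (1.72 to 2.46) and 1.80 (1.57 to 2.05). ZNF genes of other chromosomes had an RNaseH1 boundary peak at 218 of 263 (82.9%, 77.8 to 87.2), beside the chromosome 19 share of 57.3%, and a median highest fold of 2.95. With peaks at another gene boundary left out and all genes kept, the intervals overlapped, at 43.9% on chromosome 19 (37.6 to 50.3) and 49.05% elsewhere (42.9 to 55.3). Leaving out shared peaks lowered the share more on the other chromosomes, so this is again no comparison of like genes.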

How the data were processed

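Per the labels, Flag-tagged RNaseH1-D210N or REXO4-D386A was precipitated from formaldehyde-fixed U2OS cells with anti-Flag M2. Per the submitters' processing notes, hg38 was used with MACS2 2.1.0.20150731, deepTools 3.5.1, SAMtools 1.17, HISAT2 2.2.1, Trim Galore 0.6.10 and Cufflinks. The sources used here do not give the control, the libraries or the threshold of peak calling. Peak names in each list hold the word ChIPseq2, so each may rest on 1 replicate. The largest q was 0.198 in the RNaseH1 list and 0.179 in the REXO4 list. Fold enrichment is a ratio deposited by the authors for every peak, and the −log10 p and −log10 q are the authors' deposited values too. Folds were compared within a list only.

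Fragments and expected pileup at each summit were recovered from fold and p, reading the fold as fragments over expected with 1 added to each. The result was whole within 0.05 fragments for 54623 of 54623 RNaseH1 and 1459 of 1460 REXO4 peaks. Of 59792 RefSeq genes (GRCh38.p14), 58961 on assembled chromosomes were used. The table gives no strand, which was taken from the RefSeq promoter table where a gene was in it. A peak counted for every gene whose window it overlapped by at least 1 bp. Genes were named by rank: highest folds, most inside peaks, widest peaks, longest without a peak, and the strongest per cluster. The sequences of ZNF577 and ZNF568, ZNF534, and the genes named for REXO4 peaks nearby were chosen after their values were seen. The motifs CCGGAAG and ACTACAA were likewise added later. The members and lists were chosen with earlier results of these data known. Assignment and fragment recovery were tested on simulated data. Promoter starts inside a gene were added as an alternative after the data were seen. Protein features were not used here. Software was pandas 2.3.3, SciPy 1.17.1, NumPy 2.4.6 and matplotlib 3.10.9 under Python 3.11.15.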

Additional observations from a re-analysis of the deposited data

How the results depend on the processing

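Of 113 recomputed values, 88 moved by less than the margin set for them (the counting interval, for shares). With windows of 500 bp, 1.85% of ZNF genes had an RNaseH1 peak at the end, and with 2500 bp 12.04%. With 2500 bp the REXO4 peak of ZNF536 counted as a boundary peak, which left 0% of genes and 0 per 100 kb inside. Peaks with q of 1e-05 or less gave 41.9% of ZNF genes with an RNaseH1 boundary peak, 42.6% with a start peak, 12.6% with an inside peak, 0.553 inside peaks per 100 kb, and a REXO4 gap to the other genes of -2.41 percentage points. With peaks at another gene boundary left out, the RNaseH1 shares were 43.9% at a boundary and 42.6% at the start, and the gaps -1.87 (RNaseH1) and -3.02 (REXO4) percentage points. With inside peaks at the promoter of the gene itself left out, the inside share was 19.9% and the density 1.21 per 100 kb. With those at boundaries of different genes left out, the density was 1.27, and with both left out the values were 17.5% and 0.987. With any RefSeq promoter as the start, 65.7% of ZNF genes had a start peak. These choices on promoters were added after seeing the data. Within bins of gene length the RNaseH1 gap was 0.53 (reversed) under 10 kb, -31.8 at 30 to 100 kb and -76.7 over 100 kb, where only 2 ZNF genes remain. The REXO4 gaps were -1.99, -6.76 and -13.3. The cause was not tested. No library could be left out, since the lists hold no value per library. No paired analysis was possible because the lists hold no value per replicate. The REXO4 list holds 1460 peaks with a median of 80 fragments, and the RNaseH1 list 54623 with 23, and why their lengths differ was not tested.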

Other observations

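Among inside RNaseH1 peaks of ZNF genes with known strand, 57 lay nearer to the gene start than to its end and 39 nearer to the end (59.4% nearer to the start). For the other genes of chromosome 19 the numbers were 538 and 648 (45.4%). Peaks at a promoter of the gene itself are included. Across the 137 ZNF promoters with a peak, the fold had a Spearman correlation of 0.24 with GC percent, 0.22 with CpG count and -0.20 with the expected pileup, which share the same peaks and depth and are given as descriptions. The letters ACTACAA, searched on both strands, were in 11 of 216 ZNF windows (5.09%), against 26 of 966 windows of the other genes (2.69%) and 2.95% of all promoters.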
